A study of Mus musculus with 6 samples.

Results

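Histamine and noradrenaline receptor genes were followed in thalamic RNA bound to tagged ribosomes, as a set of 9 genes taken by name whatever their values: Hrh1, Hrh2, Hrh3, Adra1a, Adra1b, Adra1d, Adra2a, Adra2c and Adrb1. All 9 were among the 32532 gene rows of the count tables, and all 9 passed the filter on low counts that left 16496 genes to test. All libraries came from the thalamus of adult control mice, given no treatment, of the line Slc17a6-EGFP/Rpl10a JX883. There the ribosomal protein Rpl10a carries EGFP, and the line takes its name from Slc17a6, which encodes the vesicular glutamate transporter VGLUT2. The labels do not list which thalamic cells carry the tag. The 3 IP libraries held RNA immunopurified from homogenised thalamus with anti-EGFP antibodies, a method called translating ribosome affinity purification. The 3 Input libraries are labelled as input, the usual name for RNA of the homogenate before purification, although the molecule is given as ribosomal-bound RNA for both groups. Replicates were numbered 1 to 3 in each group, and nothing in the labels assigns them to different animals. The p-values therefore measure only how far these libraries differ, which may be technical. The IP libraries held between 52068145 and 54421395 gene reads and the Input libraries between 44081149 and 47340322.

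Histamine is released by neurons of the posterior hypothalamus and noradrenaline by neurons of the locus coeruleus, and both groups of cells are most active during waking. In thalamic relay neurons these transmitters are known to shift firing from bursts to single spikes. Receptors that couple to Gq (Hrh1 and the Adra1 genes) act through phospholipase C, those that couple to Gs (Hrh2 and Adrb1) raise cAMP, and those that couple to Gi (Hrh3 and the Adra2 genes) lower cAMP and inhibit transmitter release. Astrocytes and other glia also carry several of these receptors, so the comparison of IP with Input asked which receptor RNAs travelled with the tagged ribosomes.

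Levels and calls of the markers of the tissue and of other cells were as follows. The counts of called markers stand beside 9.60% of all genes tested called as higher and 15.6% as lower in IP. The striatal and hypothalamic counts are close to these shares. Summed over 12 thalamic glutamatergic markers, levels were 12457, 8677 and 7758 CPM (the usual depth-scaled unit of read counts, here with TMM factors) in IP replicates 1, 2 and 3, and 8619, 5368 and 2969 CPM in Input replicates 1, 2 and 3. Of these markers 3 rose in IP and 9 did not pass. Their median log2 fold change was 0.52, and the range ran from -0.35 for Plekhg1 to 1.91 for Calb2. Calb2 and Tcf7l2, the latter at 1.15, were among the 3 that rose. Slc17a6 itself was higher in IP in each replicate pair, at 6489, 2193 and 2200 CPM in IP and 3153, 875 and 477 CPM in Input, but its log2 fold change, 1.27 ± 0.68 (SE), did not pass (edgeR adjusted p = 0.206). With the replicate number as a block in the fit it passed, at 1.52 (edgeR adjusted p = 0.000246). All of 12 tested oligodendrocyte markers and 11 of 12 astrocyte markers fell in IP, with list medians of -4.32 and -4.15 on the log2 scale. Of 10 microglial markers 9 fell (median -4.49), of 7 precursor markers 5 fell (median -4.14), and of 10 GABAergic markers 6 fell (median -2.82). Habenular markers fell in 6 of 8 cases (median -2.78), endothelial in 6 of 10 (-3.38), mural and meningeal in 5 of 9 (-3.36), choroid plexus and ependymal in 3 of 6 (-3.19) and striatal in 1 of 9 (-1.56), and of 8 hypothalamic markers 1 rose and 1 fell (-1.92). Of 9 cortical and hippocampal markers 0 were called by edgeR, DESeq2 or limma-voom and 0 had an unadjusted edgeR p under 0.05 (median -1.11), while the blocked fit called 1 as higher and 2 as lower. The log2 fold changes were -3.70 for Mbp of oligodendrocytes, -1.62 and -2.01 for Slc1a2 and Aldoc of astrocytes, and -5.01 and -4.14 for Vcan and Gpr17 of precursors. They were -3.75 and -5.73 for Csf1r and P2ry12 of microglia, and -2.95 for Gad2 of GABAergic neurons. Input replicate 3 stood apart: it held 1187 CPM of striatal markers against 223 and 349.9 CPM in Input replicates 1 and 2, 1226 CPM of choroid plexus and ependymal markers against 46.8 and 46.9 CPM, and the least of the thalamic markers. No marker in these lists had 0 reads in all 3 libraries of a group. Each receptor gene is therefore given with its value in every library. In bulk libraries, fewer cells of a type and less RNA per cell cannot be told apart.

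Hrh3 was the most abundant receptor gene of the set in every library, and it was the single one that passed the test as higher in IP. Hrh3 encodes the H3 histamine receptor, a Gi-coupled receptor known both as the autoreceptor of histamine neurons and as a brake on release at other terminals. It had 337, 211 and 195 CPM in IP replicates 1, 2 and 3, and 103, 84.7 and 71.7 CPM in Input replicates 1, 2 and 3. Every IP library lay above every Input library, and within each group replicate 1 was highest and replicate 3 lowest. The log2 fold change was 1.52 ± 0.26 (SE), with a 95% interval from 0.94 to 2.10, which is 2.87 times the Input level (edgeR quasi-likelihood test, two-sided, adjusted p = 0.00438). The replicate pairs gave folds of 3.28, 2.49 and 2.73. The fit with a replicate block gave 1.49 ± 0.15 (edgeR adjusted p = 5.6e-05). Without Input replicate 3 the value was 1.41 (edgeR adjusted p = 0.0128). Of the genes tested, 97.8% had a lower log2 fold change than Hrh3. Without both libraries of replicate 2, which left 2 libraries a group, it was 1.61 and did not pass (edgeR adjusted p = 0.0611).

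Adra1b, the gene of the Gq-coupled alpha1B adrenergic receptor, was the next most abundant. It had 99.5, 59.7 and 53.2 CPM in IP replicates 1, 2 and 3, and 49.8, 24.8 and 14.1 CPM in Input replicates 1, 2 and 3. The groups did not overlap, the IP library was higher in 3 of 3 replicate pairs, and the pair folds were 2.0, 2.40 and 3.77. The lowest value, that of Input replicate 3, was in the library with the least of the thalamic markers. Whether the 2 are linked was not tested. The log2 fold change of 1.26 ± 0.44 (SE), with a 95% interval from 0.26 to 2.26, did not pass after adjustment (edgeR adjusted p = 0.0685). With the replicate block it was 1.39 ± 0.21 and passed (edgeR adjusted p = 0.000716). It also passed without Input replicate 1, at 1.87 (edgeR adjusted p = 0.0117), and after both replicate 1 libraries were left out, at 1.54 (edgeR adjusted p = 0.0170). Without Input replicate 3 it came to 0.94 (edgeR adjusted p = 0.115).

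The start regions of these 2 genes are shown because Hrh3 and Adra1b held most of the receptor signal. They are the 250 bases before the first annotated RefSeq start (GRCm38.p6), read 5′ to 3′ on the strand of the gene, with matches to the GC box GGGCGG on either strand in capitals. The Hrh3 window is chr2:180104408-180104657 on the minus strand and the Adra1b window chr11:43901238-43901487, also on the minus strand. The GENCODE M21 annotation sets the start of Hrh3 further upstream, at 180104488. The end of the Hrh3 window, with its last GC box match, therefore lies inside that gene model.
Hrh3: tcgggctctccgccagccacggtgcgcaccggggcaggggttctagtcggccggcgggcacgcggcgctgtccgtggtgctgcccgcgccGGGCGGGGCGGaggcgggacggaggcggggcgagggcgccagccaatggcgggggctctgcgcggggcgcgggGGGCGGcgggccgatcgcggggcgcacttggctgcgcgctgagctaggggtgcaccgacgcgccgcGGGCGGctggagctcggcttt
Adra1b: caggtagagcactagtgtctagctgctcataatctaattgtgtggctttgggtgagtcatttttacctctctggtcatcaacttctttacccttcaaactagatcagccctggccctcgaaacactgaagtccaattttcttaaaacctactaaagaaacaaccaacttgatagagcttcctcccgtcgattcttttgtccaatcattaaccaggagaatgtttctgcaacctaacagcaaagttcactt
The Hrh3 window had 80.8% G and C and 4 GC box matches, 2 of which overlap, while the Adra1b window had 41.6% G and C and none. A GC box match occurred in 32.7% of 32851 windows of this length. Neither window held the TATA box letters TATAAA (in 12.4% of windows), the TCF/LEF core CTTTGA (13.8%) or the cAMP response element core TGACG (17.8%) on either strand. A second RefSeq start of Adra1b had a window with 72.8% G and C and 1 GC box match. These matches are descriptions of letters, and the count tables hold no measure of start site use. RefSeq windows were found for 7 of the 9 genes, and Adra1a and Adra1d had none.

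**Figure D1:**
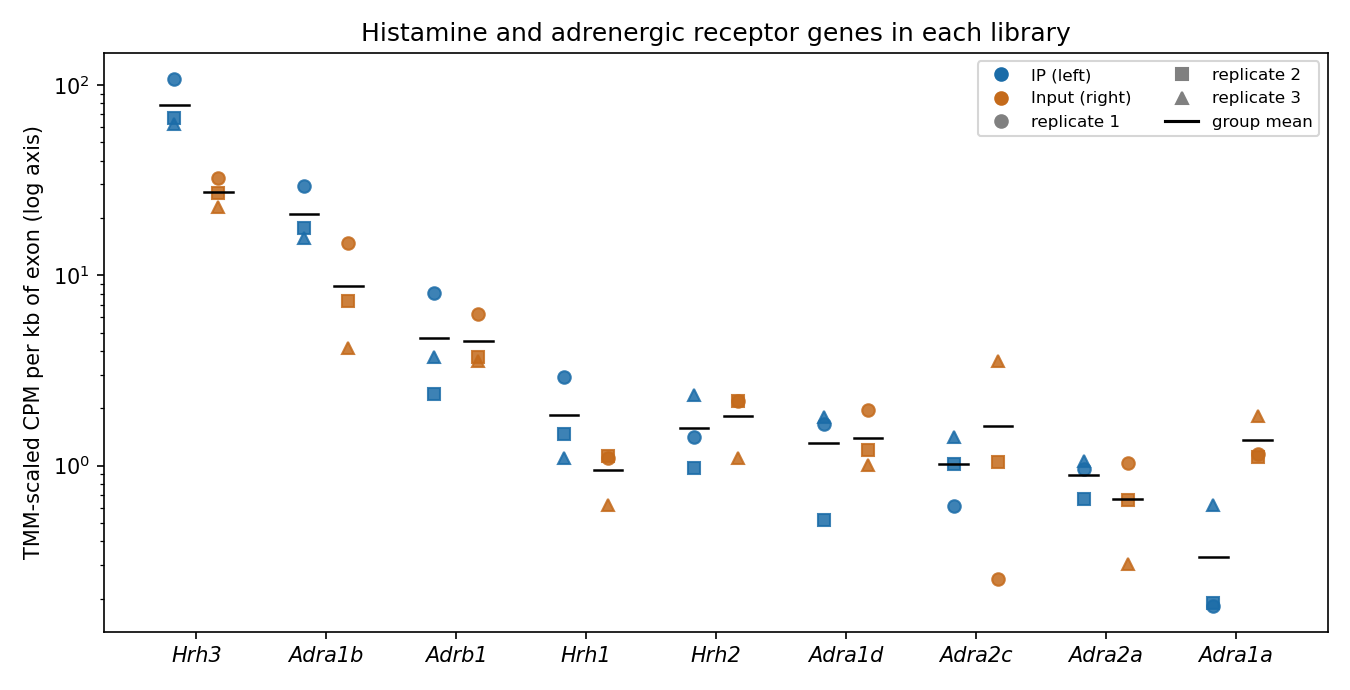
Level of each receptor gene in each library, as TMM-scaled CPM per kilobase of exon on a log axis, with IP left of Input; marker shape gives the replicate number and the black line the group mean (n = 3). In IP, Hrh3 and Adra1b stand above the other genes of the set, while Adra1b and Adrb1 overlap in Input. The IP values of Hrh3 and of Adra1b lie above all Input values of the same gene, and Adra1a is the gene whose IP values all lie below Input.

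Hrh1, the Gq-coupled H1 receptor gene and the target of sedating antihistamines, had 13.0, 6.53 and 4.89 CPM in IP replicates 1, 2 and 3, and 4.85, 5.02 and 2.75 CPM in Input replicates 1, 2 and 3. The IP library was higher in 3 of 3 pairs, but IP replicate 3 lay below Input replicate 2. The log2 fold change was 0.95 ± 0.47 (SE), with a 95% interval from -0.12 to 2.03, and it passed neither the test on group (edgeR adjusted p = 0.173) nor the blocked one (edgeR adjusted p = 0.107). Without IP replicate 1, the library with the highest Hrh1 level, it was 0.45 (edgeR adjusted p = 0.538).

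Hrh2, the Gs-coupled H2 receptor gene, had 8.35, 5.77 and 14.0 CPM in IP replicates 1, 2 and 3, and 13.0, 13.0 and 6.49 CPM in Input replicates 1, 2 and 3. The groups overlapped, and the pairs went both ways, with folds of 0.645, 0.444 and 2.15. At -0.21 ± 0.42 (SE), its log2 fold change did not pass (edgeR adjusted p = 0.759), and its 95% interval ran from -1.16 to 0.75. Each library held between 286 and 760 reads of Hrh2.

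Adra1a went the other way from Adra1b, its close relative. Adra1a encodes the alpha1A adrenergic receptor, which is likewise Gq-coupled. It had 1.60, 1.66 and 5.44 CPM in IP replicates 1, 2 and 3, and 10.02, 9.72 and 15.9 CPM in Input replicates 1, 2 and 3. Every IP library lay below every Input library, and replicate 3 was the highest in both groups. The log2 fold change was -2.03 ± 0.55 (SE), with a 95% interval from -3.27 to -0.80, and passed (edgeR adjusted p = 0.0265). With the replicate block it was -2.24 ± 0.39 (edgeR adjusted p = 0.00150). The call ended without IP replicate 1 (log2 fold change -1.73, edgeR adjusted p = 0.0709), IP replicate 2 (-1.75, 0.0865), Input replicate 2 (-2.16, 0.0551) or Input replicate 3 (-1.75, 0.0588). It also ended when both libraries of replicate 1 (-1.85, 0.0830) or of replicate 2 (-1.89, 0.161) were left out. Of the 13 marker lists, the GABAergic, striatal, mural and meningeal, and choroid plexus lists were likewise lower in IP on average and highest in replicate 3 of each group. The summed GABAergic markers stood at 139, 184 and 305 CPM in IP replicates 1, 2 and 3 and 1070, 1104 and 1631 CPM in Input replicates 1, 2 and 3. Mural and meningeal markers stood at 5.84, 6.92 and 7.87 CPM in IP and 80.5, 80.2 and 206 CPM in Input, and choroid plexus markers at 4.32, 6.13 and 47.7 CPM in IP and 46.8, 46.9 and 1226 CPM in Input. The part of these cells in the Adra1a result was not tested.

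Adra1d, the gene of the alpha1D receptor, had 3.12, 0.978 and 3.40 CPM in IP replicates 1, 2 and 3, and 3.74, 2.29 and 1.91 CPM in Input replicates 1, 2 and 3. The groups overlapped, and the log2 fold change of -0.08 ± 0.61 (SE), with a 95% interval from -1.47 to 1.31, did not pass (edgeR adjusted p = 0.940). Adrb1, the Gs-coupled beta1 receptor gene, was the third most abundant of the set by mean level per kilobase, with 27.2, 8.05 and 12.5 CPM in IP replicates 1, 2 and 3, and 21.2, 12.6 and 12.03 CPM in Input replicates 1, 2 and 3. Replicate 1 was the highest in both groups. At 0.06 ± 0.45 (SE), its log2 fold change had a 95% interval from -0.97 to 1.08 and did not pass (edgeR adjusted p = 0.943). With the replicate block that interval ran from -0.68 to 0.53.

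The Gi-coupled alpha2 genes did not pass either. Adra2a, which encodes the receptor best known as the autoreceptor of noradrenaline neurons and the target of clonidine, had 4.62, 3.22 and 5.13 CPM in IP replicates 1, 2 and 3, and 4.96, 3.19 and 1.48 CPM in Input replicates 1, 2 and 3. Levels were nearly equal within replicates 1 and 2, with folds of 0.933 and 1.01, and higher in IP within replicate 3, with a fold of 3.48. Its log2 fold change was 0.43 ± 0.53 (SE; 95% interval from -0.77 to 1.63, edgeR adjusted p = 0.598), and 0.10 once Input replicate 3 was left out (edgeR adjusted p = 0.895).

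Adra2c, the gene of the alpha2C receptor, had 2.11, 3.50 and 4.86 CPM in IP replicates 1, 2 and 3, and 0.870, 3.58 and 12.2 CPM in Input replicates 1, 2 and 3. The Input values spanned the whole range of the IP values and beyond. Its log2 fold change of -0.67 ± 0.81 (SE; 95% interval from -2.51 to 1.17) did not pass (edgeR adjusted p = 0.594), and without Input replicate 3 it was 0.66 (edgeR adjusted p = 0.524). With the replicate block it was -0.056 ± 0.57 (edgeR adjusted p = 0.952). The GABAergic and choroid plexus lists, given beside Adra1a, stood in the same order of libraries as Adra2c within both groups. Striatal markers, summed over 9 genes, were 250.4, 206 and 312 CPM in IP replicates 1, 2 and 3 and 223, 349.9 and 1187 CPM in Input replicates 1, 2 and 3, which follows the order of Adra2c in Input but not in IP. Their part in the Adra2c values was not tested.

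Of the 9 receptor genes 1 was higher and 1 lower in IP, against 9.60% and 15.6% of all genes tested (25.2% in either direction), so the share called is close to that of all genes in each direction. The values of the groups did not overlap for 2 genes higher and 1 lower in IP, against 19.9% and 25.0% of all genes (44.9% in either direction). With the replicate block 2 were higher and 1 lower, against 15.9% and 19.2% of all genes (35.1% in either direction). The median log2 fold change of the receptor genes was 0.06, beside -0.04 over all genes tested, and the range ran from -2.03 to 1.52. None of the 9 had a log2 fold change as low as the median of the astrocyte, oligodendrocyte, precursor or microglial markers. Of the single markers in these 4 lists, the astrocyte markers Aldh1l1, Slc1a2 and Aldoc (-1.64, -1.62 and -2.01) and the precursor markers Tnr and C1ql1 (-0.29 and 0.56) had log2 fold changes above that of Adra1a. The 95% interval of Adra1a, from -3.27 to -0.80, held the medians of the GABAergic (-2.82), habenular (-2.78), striatal (-1.56), cortical (-1.11), hypothalamic (-1.92) and choroid plexus (-3.19) lists. It did not hold those of the 4 glial, the endothelial, the mural and meningeal or the thalamic lists. With the replicate block the interval ran from -3.10 to -1.38, and the cortical and choroid plexus medians lay outside it. The medians hide a wide spread of single markers, from -5.14 to -0.87 in the GABAergic list and from -5.03 to -1.62 in the astrocyte list. An interval for the mean change of 1 gene therefore cannot place its reads in a type of cell, whether a median lies inside or outside it. Which cells the Adra1a reads came from was not tested.

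**Figure D2:**
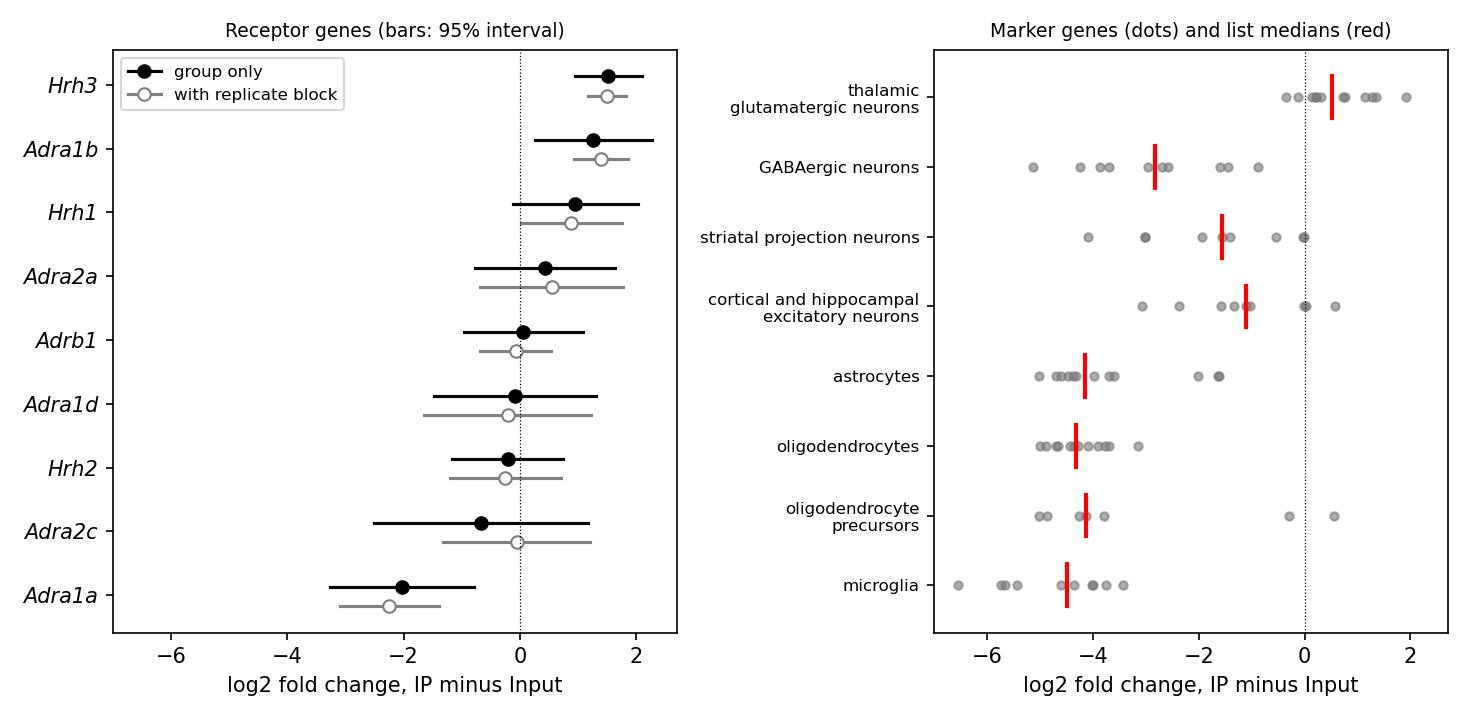
Log2 fold changes of IP minus Input for the 9 receptor genes (left, filled points from the fit on group and open points with the replicate block, bars for 95% intervals) and for marker genes (right, dots, with the list median in red). The receptor genes run from -2.03 for Adra1a to 1.52 for Hrh3, while the medians of the 4 glial lists lie between -4.49 and -4.14.

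Levels of different genes were compared per kilobase of exon. In IP the order was Hrh3 (78.7 ± 24.7 CPM per kilobase, SD, n = 3), Adra1b (20.9 ± 7.42), Adrb1 (4.70 ± 2.95), Hrh1 (1.83 ± 0.968), Hrh2 (1.58 ± 0.707), Adra1d (1.32 ± 0.698), Adra2c (1.01 ± 0.399), Adra2a (0.895 ± 0.205) and Adra1a (0.332 ± 0.252). The ranges of neighbours did not overlap at the steps from Hrh3 to Adra1b, from Adra1b to Adrb1 and from Adra2a to Adra1a. At the other steps they overlapped, so the order within the middle of the list is not fixed by these libraries. In Input Hrh3 came first at 27.4 ± 4.95 CPM per kilobase, Adra1b had 8.74 ± 5.41 and Adrb1 4.52 ± 1.52, and the other 6 genes lay between 0.664 and 1.82, with Adra1a at 1.36 ± 0.400 and Adra2a lowest. Neighbours in the Input order did not overlap at the steps from Hrh3 to Adra1b and from Adrb1 to Hrh2, and overlapped at the others, Adra1b and Adrb1 included. Of the summed level per kilobase of the 9 genes, Hrh3 made up 70.3%, 72.9% and 69.1% in IP replicates 1, 2 and 3 and 53.2%, 59.4% and 58.6% in Input replicates 1, 2 and 3. The Gs-coupled genes together made up 6.20%, 3.65% and 6.74% in IP and 13.8%, 13.1% and 11.97% in Input. Neither pair of ranges overlapped, and since these are shares of 1 sum, a rise of Hrh3 lowers the shares of the others.

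Ratios of the reads of 2 genes within a library do not depend on scaling between libraries. Of 4 ratios, chosen after the values were seen, Adra1b over Adra1a was 62.1, 36.0 and 9.76 in IP replicates 1, 2 and 3 and 4.96, 2.55 and 0.886 in Input replicates 1, 2 and 3. Although the ratio differed several-fold between replicates of a group, it was higher in IP by 12.5, 14.1 and 11.0 times within the 3 pairs. Hrh3 over Hrh2 was 40.3, 36.5 and 14.0 in IP and 7.92, 6.51 and 11.0 in Input, and Adra1b over Adrb1 was 3.67, 7.41 and 4.25 in IP and 2.35, 1.97 and 1.17 in Input. None of these 3 ratios overlapped between groups. Each reached the smallest p that 3 libraries against 3 allow (exact permutation test, two-sided, p = 0.1, and 0.133 adjusted over the 4 ratios), so none can pass a threshold of 0.05. For Adra1b over Adra1a the lack of overlap was fixed in advance, because neither gene overlapped between groups and they moved in opposite directions. The adjustment does not cover the choice of these 4 ratios, so the p-values add no support to the values of the single genes. Hrh3 over Adra1b, the ratio of the 2 most abundant genes, was 3.39, 3.53 and 3.68 in IP and 2.06, 3.41 and 5.08 in Input, which overlapped (exact permutation p = 0.8).

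**Figure D3:**
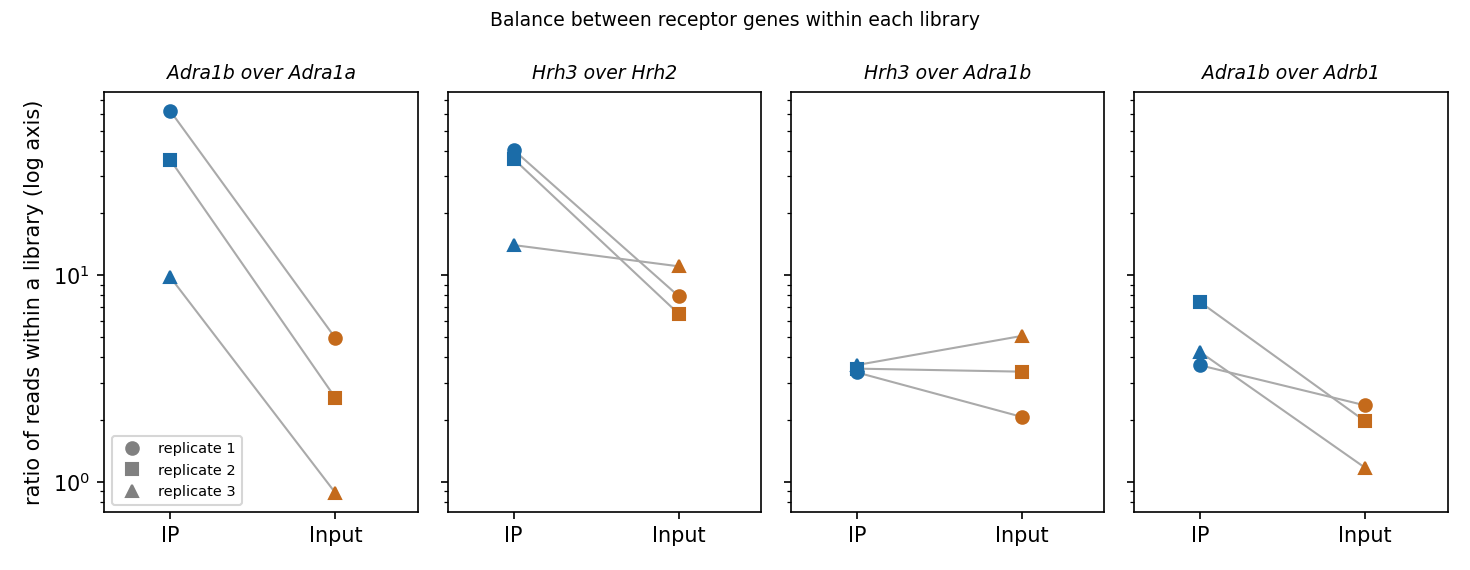
Ratio of the reads of 2 receptor genes within each library on a log axis, IP left and Input right, with grey lines joining libraries of the same replicate number. Adra1b over Adra1a is 11.0 to 14.1 times higher in IP in each pair, and Hrh3 over Adra1b shows no common direction.

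Further genes of both families were also measured. Adra2b, the gene of the alpha2B receptor, had 30.8, 16.8 and 16.3 CPM in IP replicates 1, 2 and 3 and 17.0, 13.1 and 3.47 CPM in Input replicates 1, 2 and 3, above both alpha2 genes of the set per kilobase in IP (5.31 ± 2.05 CPM per kilobase, SD, n = 3). At 0.93 ± 0.53 (SE), its log2 fold change did not pass (edgeR adjusted p = 0.233), while the blocked fit gave 1.13 ± 0.35 and passed (edgeR adjusted p = 0.0284). Adrb3, a beta receptor gene best known from fat, had 18, 24 and 28 reads in IP replicates 1, 2 and 3 and 20, 51 and 227 reads in Input replicates 1, 2 and 3, and did not pass, at -2.31 ± 0.96 (SE) on the log2 scale (edgeR adjusted p = 0.112). DESeq2 called it as lower (adjusted p = 0.0454), and without Input replicate 3 the edgeR value was -0.72 (adjusted p = 0.571). Hrh4 had no read in any of the 6 libraries, which allows up to 3 reads, between 0.0551 and 0.0681 CPM of the library total.

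Hrh3 lies on chromosome 2 from 180099465 to 180104488 on the minus strand (GENCODE M21, on GRCm38, the assembly of mm10), Hrh1 on chromosome 6 from 114397936 to 114483296, and Hrh2 on chromosome 13 from 54192129 to 54236180. Adra1b lies on chromosome 11 from 43774606 to 43901210, Adra1a on chromosome 14 from 66635251 to 66771168, and Adra1d on chromosome 2 from 131545850 to 131562283. Adra2a and Adrb1 share chromosome 19, from 54044151 to 54048982 and from 56722199 to 56733113, and Adra2c lies on chromosome 5 from 35278319 to 35281763. Exons of Hrh3, Hrh2 and Adra1d overlap exons of predicted genes on the other strand (Gm17180, Gm16578 and Gm14285) over 349, 145 and 147 bases, or 11.1%, 2.44% and 7.74% of their exon length. With the strand setting of the counting unknown, reads there cannot be told apart. Exons of the other 6 genes of the set overlapped no other annotated exon. Outside the set, exons of Adrb3 overlap those of Gm45470 on the other strand over 839 bases, or 24.9% of its exon length. The same limit therefore holds for the few reads of Adrb3.

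The counts of called genes in the pathway lists stand beside 9.60% of all genes tested called as higher and 15.6% as lower in IP. Of 12 listed genes for synthesis, transport and breakdown 9 were tested, of which 1 was higher and 2 lower in IP (2 and 3 in the blocked fit), with a median log2 fold change of 0.07. Ddc, the decarboxylase of monoamine synthesis, fell by 1.84 on the log2 scale (edgeR adjusted p = 0.0258). Hdc, which makes histamine, fell, with 0, 0.226 and 0 CPM in IP replicates 1, 2 and 3 and 2.37, 2.99 and 1.34 CPM in Input replicates 1, 2 and 3 (edgeR adjusted p = 0.0369).

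Among the G proteins that carry the signal, 4 of 10 alpha subunit genes rose and 6 did not pass (median log2 fold change 0.42). Gnaz, a Gi-type subunit of neurons, rose by 1.30, Gnas, the Gs subunit, by 1.06 and Gnai2 by 0.82 on the log2 scale. Mean levels of Gnas were 4359 ± 593 CPM over the IP libraries and 2085 ± 175 CPM over the Input libraries (SD, n = 3; edgeR adjusted p = 0.00344). The Gq subunit gene Gnaq, by contrast, averaged 309 ± 33.3 CPM over the IP libraries and 328 ± 19.8 CPM over the Input libraries (SD, n = 3). Its log2 fold change was -0.08, which did not pass (edgeR adjusted p = 0.757), and it was picked for mention after its value was seen. Of 12 beta and gamma subunit genes 4 rose and 3 fell (median 0.36). Gng13, Gng3 and Gng2 rose by 1.65, 1.63 and 1.02, and Gng11 fell, with 0.811 ± 0.530 CPM over the IP libraries and 13.0 ± 3.15 CPM over the Input libraries (SD, n = 3; edgeR adjusted p = 0.00353).

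Downstream of Gq, 2 of 13 tested genes for phospholipase C beta, protein kinase C, IP3 receptors and diacylglycerol kinases rose and 3 fell (median -0.54). Itpr2, an IP3 receptor known from astrocytes, fell by 3.37, with 1.62 ± 0.85 CPM over the IP libraries and 16.8 ± 1.40 CPM over the Input libraries (SD, n = 3; edgeR adjusted p = 0.00182). Plcb3 and Dgkb fell (log2 fold changes -2.14 and -1.48), and Prkce, a protein kinase C gene, rose by 0.77. With 1 library left out, Dgkb ran from -1.76 to -0.72. Among the Input libraries, replicate 3 was highest for 9 of the 14 listed genes of this list, and for 8 of 12 beta and gamma genes. That library also held the most striatal and choroid plexus markers. Whether the 2 are linked was not tested. Downstream of Gs and Gi, 5 of 18 tested cyclase, protein kinase A and cAMP phosphodiesterase genes rose and 13 did not pass (median 0.31). Prkaca and Prkar1b, a catalytic and a regulatory subunit of protein kinase A, rose by 1.005 and 0.97, and Pde4a, a cAMP phosphodiesterase, by 0.83. Of 12 genes for receptor kinases, arrestins and RGS proteins 3 rose and 9 did not pass (median 0.34): Adrbk1, the kinase that phosphorylates beta adrenergic receptors, by 1.29 (edgeR adjusted p = 0.00390), Rgs16 by 1.04 and Rgs7 by 0.72.

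Of 14 channel genes on which these receptors are known to act, 0 were called by edgeR, and at an unadjusted p under 0.05 there were 1 higher and 1 lower. DESeq2 called 1 as lower, limma-voom called 0, and the blocked edgeR fit called 2 as higher and 1 as lower. The list's median log2 fold change was 0.15. Cacna1g, which encodes a T-type calcium channel subunit, had a log2 fold change of 0.20 ± 0.43 (SE) and did not pass (edgeR adjusted p = 0.771). Over the 7 lists, 19 of 88 tested genes were higher and 8 lower in IP, which is 21.6% and 9.09%, beside 9.60% and 15.6% of all genes tested. These lists were not tested as sets. Of the 19 called genes named here, 9 kept their call in each of the 6 fits without 1 library (Gnaz, Gnas, Gng3, Gng2, Gng11, Itpr2, Prkar1b, Pde4a and Adrbk1), and 10 lost it in at least 1 (Hdc, Ddc, Gnai2, Gng13, Plcb3, Dgkb, Prkce, Prkaca, Rgs16 and Rgs7).

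**Figure D4:**
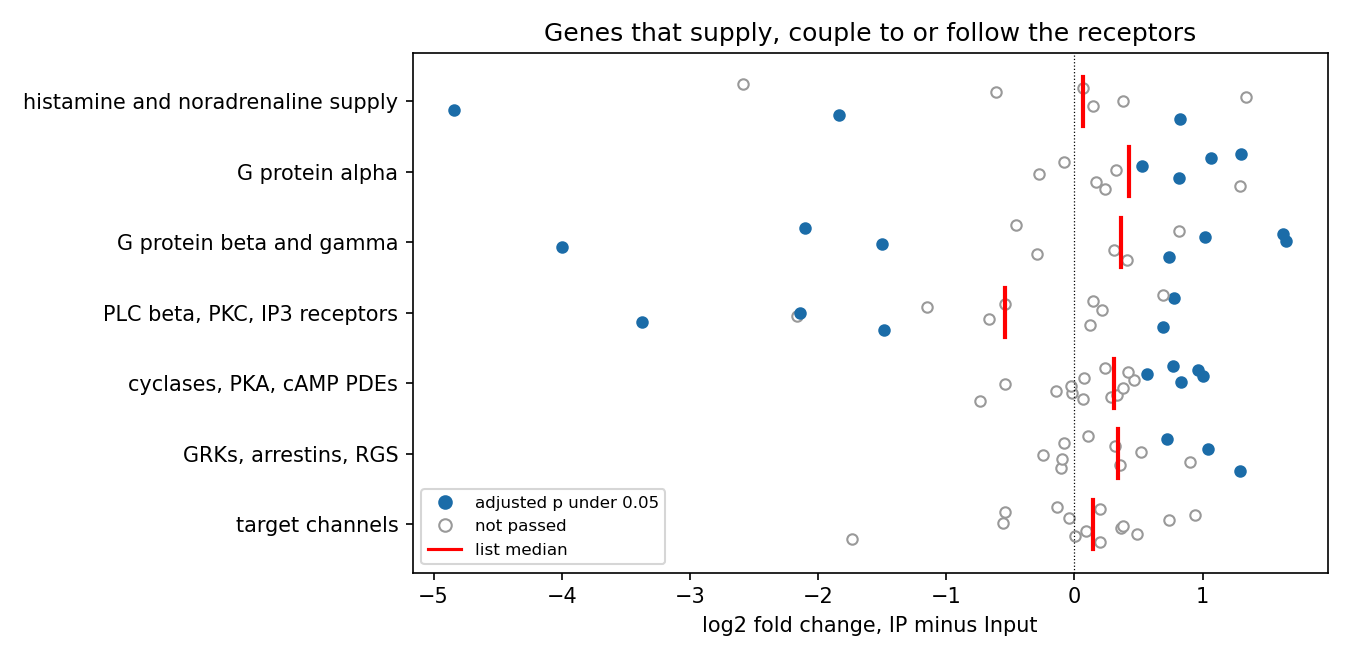
Log2 fold changes of IP minus Input for the tested genes of the 7 lists that supply, couple to or follow the receptors; each point is a gene, filled blue where the adjusted p was under 0.05, and red lines are list medians. Medians run from -0.54 for the phospholipase C list to 0.42 for the G protein alpha subunits, and the channel list holds no filled point.

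For the 3 genes of the set of 9 with the highest level in IP, the genes with the most similar profile over the 6 libraries were found by the root-mean-square difference of centred log2(CPM + 0.5) values among 13309 genes whose mean was 1 CPM or more. For Hrh3 these were Crhbp, a binding protein of corticotropin-releasing hormone, and Tmem14a, with differences of 0.112 and 0.121, against a median of 0.836 over all genes compared. For Adra1b they were Rtn4rl1 and Adgra1 (0.147 and 0.165), and for Adrb1 they were Grik3, a kainate receptor subunit, and Ostm1 (0.0929 and 0.0987). The 6 values of each gene share library, depth and scaling, so these are descriptions of these libraries.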

How the data were processed

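RNA was sequenced from 6 thalamic libraries, 3 IP and 3 Input, grouped and numbered by their titles. Each number also marks 1 sequencing lane (3, 8 and 4), so lane and number cannot be told apart. What the authors deposited is 1 table of raw counts, whole numbers of reads per gene, for each library. The submitters' processing notes name STAR 2.0.0e, HTSeq and the build mm10, so the counts per the labels' notes rest on these tools. Which annotation and which strand setting were used is not given in the sources used here. Summary rows were kept out: on average 7.76% of records in IP and 16.3% in Input had no feature, 1.79% and 9.34% were ambiguous, and 40.8% and 25.8% aligned at more than 1 place, which lowers counts of genes with close copies.

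Genes with low counts were removed by filterByExpr (by group), and TMM scaling and the two-sided quasi-likelihood test on group came from edgeR 4.0.16 in R 4.3.3, with Benjamini-Hochberg adjustment over 16496 genes and a threshold of 0.05. SE and 95% intervals are those of the log2 fold change. Levels per kilobase used the exon length of GENCODE M21, which may differ from the annotation counted. Deviations from the group means were correlated between libraries of the same number, at 0.271, 0.113 and 0.141 across genes for replicates 1, 2 and 3. Since each exceeded 0.1, the numbers in the titles were treated as possible pairs, in the blocked fit and in the pair folds. Lane and number cannot be told apart, so this does not show that a pair came from 1 sample. The fit without the block stayed the main one because the labels state no pairing, and it ignores any pairing. The calls of Adra1b, Adra2b and Slc17a6 depend on this choice: they passed with the block and not in the main fit. Values with the block are printed for some genes and lists, not for all. No libraries of 1 group agreed within sampling noise (chi-square per degree of freedom from 52.3 to 288).

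The genes and lists were chosen with earlier results of these data known. Named genes were the 9 receptor genes, the rest of their families, up to 3 called genes in the main direction and 1 in the other from each of 7 pathway lists (the 2 most abundant where none was called), up to 2 called genes of cell type lists (not all printed), and the 2 genes most alike in profile to each of the 3 most abundant genes of the 9. Alternatives were other scalings, filters, DESeq2 1.42.0, limma-voom (limma 3.58.1), a block for the replicate number, each library or number left out in turn, and leaving out features named by clone accessions. Permutation tests used scipy 1.17.1. A few items chosen by this rule are not reported here.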

Additional observations from a re-analysis of the deposited data

How the results depend on the processing

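The cause of each change named here was not tested. With 1 or 2 libraries left out, log2 fold changes ranged from 0.45 to 1.24 for Hrh1, from -0.87 to 0.20 for Hrh2, from 1.25 to 1.67 for Hrh3, from -2.86 to -1.73 for Adra1a, from 0.94 to 1.87 for Adra1b, from -0.55 to 0.31 for Adra1d, from -0.046 to 0.89 for Adra2a, from -1.17 to 0.66 for Adra2c and from -0.56 to 0.38 for Adrb1. Across these, edgeR adjusted p-values ran from 0.00418 to 0.0611 for Hrh3, from 0.00747 to 0.161 for Adra1a and from 0.0117 to 0.255 for Adra1b. Adra1b passed with no filter (1.27, edgeR adjusted p = 0.0351), DESeq2 (1.27, adjusted p = 0.0135), limma-voom (1.38, adjusted p = 0.0352) and the replicate block (1.39), which made 2 receptor genes higher in each of these 4, and it did not pass under the other scalings, the 1 CPM filter or the fit without clone-accession features. Adra2c, at -0.67 in the fit on group, was 0.000907 with limma-voom and -0.056 with the replicate block, and Adrb1, at 0.06, was -0.021 with library totals, -0.043 with upper-quartile scaling, -0.092 with limma-voom and -0.075 with the replicate block. Leaving out libraries gave 0 to 2 receptor genes higher and 0 to 1 lower, 83 to 1640 of all genes higher and 651 to 2598 lower, and 1 to 20 pathway genes higher and 3 to 8 lower. Both counts over all genes were lowest without replicate 2. Cacna1g ran from -0.40 to 0.49. With the replicate block 2624 of all genes were higher, and it changed the call of no receptor gene other than Adra1b and Adra2b. The median of all genes moved by over 0.1 from -0.04 only with no filter, to -0.24. Hrh3 lay above and Adra1a below every such median under each setting. Genes with few reads set the limit of depth. Adra1d had 52 to 185 reads in IP and 84 to 172 in Input, against 10623 to 16615 and 3156 to 4721 for Hrh3. Adra1a had 79 to 296 reads in IP. In Input, the lowest counts of Adra2c and Adra2a were 40 and 65 reads.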
